A study of Mus musculus with 168 samples.

Results

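SB00526221 is a JAK inhibitor known in the labels only by its code, and the arrays described here are those of splenic CD4 T cells after prolonged dosing with it or with vehicle. They were chosen by label: arrays of spleen T4 cells with 14 or 15 treatments of SB00526221 (5 arrays) and with the same number of treatments of plain vehicle, labelled 0.5% MC (7 arrays). These 12 arrays are among 39 spleen T4 arrays and 168 arrays in the whole series. All animals were male C57BL/6 mice of 6 weeks without any genetic change named, dosed by gavage, and each of the 12 arrays came from a different animal. T4 cells were sorted from a spleen suspension as CD4+, with no exclusion marker named, so naive, activated, memory and regulatory CD4 T cells all enter the sort. No dose or interval between treatments is given in the labels.

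Janus kinases (JAK1, JAK2, JAK3 and TYK2) sit on the receptors for interferons and many interleukins and pass their signal to STAT transcription factors. In CD4 T cells, interferon signals switch on antiviral genes through STAT proteins. Interleukin-2 and interleukin-7 act through STAT5 on survival, proliferation and regulatory T cell genes, and interleukin-6 and interleukin-4 act through STAT3 and STAT6. The comparison asks which transcripts of CD4 T cells differ after repeated blockade of this pathway, in tissue taken 14 to 18 h after the last treatment.

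The values are RMA intensities on Affymetrix Mouse Gene 1.0 ST arrays, given here as log2. The study ran in several experiments, and both groups were present in 3 of them: J2 (2 inhibitor arrays and 1 vehicle array, 14 h after the last treatment), J6 (1 and 1, both 15 treatments and 15 h) and J8 (2 and 2, with 1 array of each group at 17 h and at 14 h). The other 3 vehicle arrays came from J25 (2 arrays, 18 h) and J3 (1 array, 15 h). Differences between the groups were fitted with limma across all 39 T4 arrays with experiment in the model, for 11210 genes. The number of arrays limits the precision.

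The 12 libraries were not alike in markers of CD4 T cell subsets and in some markers of other cells, and the difference followed the experiment. T cell genes were high throughout: Cd3e lay between 12.40 and 12.71 and Cd4 between 10.95 and 12.37. Cd8a, the defining CD8 T cell gene, lay between 6.12 and 6.72, below the median of its array, and the B cell gene Ms4a1 between 4.85 and 5.83. Other markers of these cells were higher: Cd8b1 lay between 7.40 and 9.06, and the B cell genes Cd79b and Cd22 between 7.36 and 9.07 and between 6.93 and 8.42. In the 5 arrays of J2 and J25, Foxp3, the regulatory T cell transcription factor, ranged from 8.78 to 9.81, against 10.14 to 11.06 in the 7 arrays of J3, J6 and J8. Ctla4, an inhibitory receptor of activated and regulatory cells, averaged 7.64 and 9.95 in these sets of arrays. The homing receptor Ccr7 of naive cells averaged 12.43 and 11.30. Cxcr3, a chemokine receptor of effector cells, averaged 8.58 and 11.28, and Nkg7, a cytotoxic granule gene, ranged from 8.742 to 9.43 and from 11.78 to 12.79. Of the other NK cell markers, Klrb1c averaged 5.59 and 9.43, Klrd1 7.41 and 8.44, Eomes 7.04 and 8.04, and Tyrobp 7.09 and 7.90. Prf1, which encodes perforin, went the other way, ranging from 8.42 to 8.89 and from 7.22 to 8.82. The NK cell markers Ncr1, Gzma and Klra8 did not pass the filter on low values. These genes were picked with their values known. In bulk RNA, fewer cells of a type and less RNA per cell cannot be told apart.

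Markers of macrophages also varied, and their difference between the groups turned in sign between experiments. Of 15 macrophage markers 10 passed the filter on low values, and their summed level, as the mean log2 over all 15, ran from 6.10 to 7.30 in inhibitor arrays and from 6.01 to 7.66 in vehicle arrays. The F4/80 gene Adgre1 lay between 4.94 and 6.15 in inhibitor arrays and between 5.63 and 6.97 in vehicle arrays. Within J8 the macrophage level was 7.30 and 6.46 in inhibitor arrays and 7.66 and 7.06 in vehicle arrays. In J6 it was 6.213 against 6.526, and in J2 it was 6.19 and 6.10 against 6.01. The J8 vehicle array at 17 h had the highest macrophage level and the lowest median correlation with other T4 arrays of the 12 (0.950), followed by the J8 vehicle array at 14 h (0.965). The other 10 arrays had medians from 0.974 to 0.989. The leading genes and the interferon, mitosis, class II, heat shock and macrophage lists are therefore also given without both J8 vehicle arrays, a choice made after seeing the data.

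**Figure D1:**
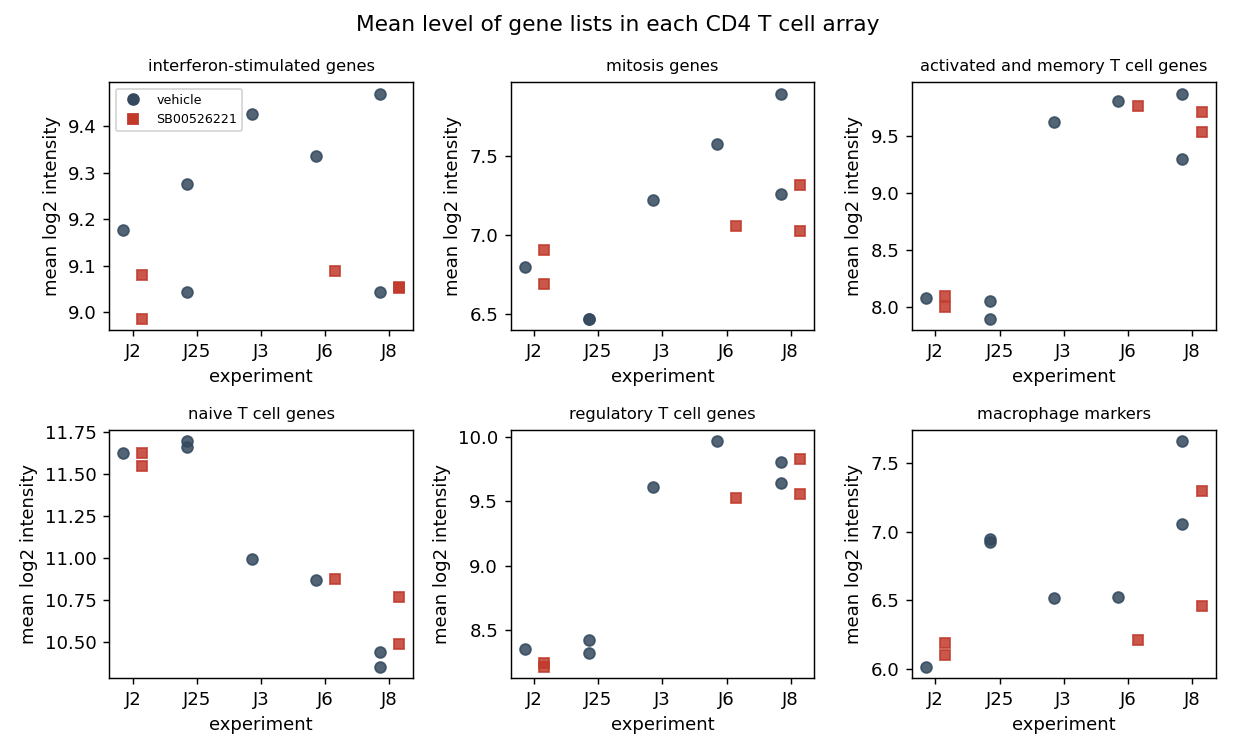
Mean log2 intensity of 6 gene lists (vertical axis) in each of the 12 CD4 T cell arrays by experiment (horizontal axis), with vehicle as dark circles and SB00526221 as red squares. Activated, memory and regulatory T cell genes are higher and naive genes lower in J3, J6 and J8 than in J2 and J25, whichever treatment was given, and macrophage markers are highest in a vehicle array of J8 at 7.66.

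After prolonged dosing, no gene differed between SB00526221 and vehicle past the threshold. Among the 10 genes with the lowest statistics were 4 interferon-stimulated genes, which lay lower with the inhibitor by 1.45-fold (Irf7), 1.52-fold (Rtp4), 1.65-fold (Oasl2) and 1.68-fold (Ifi27l2a). Of the 11210 genes tested, 0 passed an adjusted p of 0.05 with limma and Benjamini-Hochberg adjustment (0%), and the smallest adjusted p was 0.9995. At an unadjusted p under 0.05 there were 250 genes, of which 179 were lower (1.6%) and 71 higher (0.633%) with the inhibitor. The count of 250 became 1084 without the J8 vehicle array at 14 h and 692 with the pH 3 vehicle added, and it more than doubled with array weights, while the adjusted count stayed at 0. The statements on single genes that follow are therefore descriptions of these arrays, and none of them passed the adjusted test.

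Irf7, the transcription factor that amplifies type I interferon production, had the largest moderated statistic. Its log2 level with SB00526221 was 8.36 and 8.83 in J2, 9.005 in J6, and 8.76 and 8.96 in J8. With vehicle it was 9.21 in J2, 9.12 and 9.55 in J25, 9.42 in J3, 9.60 in J6, and 9.51 and 9.04 in J8. All 5 inhibitor arrays were below all 7 vehicle arrays. The fitted difference was -0.54 ± 0.13 (SE), with a 95% interval from -0.81 to -0.27, and within experiments it was -0.61 in J2, -0.60 in J6 and -0.41 in J8.

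Rtp4, an interferon-induced chaperone of receptors, was at 8.46 and 8.42 in J2, 8.54 in J6 and 8.79 and 8.999 in J8 with the inhibitor. Vehicle arrays were at 8.619 in J2, 8.89 and 9.07 in J25, 9.25 in J3, 9.33 in J6, and 9.36 and 10.10 in J8. Every inhibitor array lay below the vehicle arrays of its own experiment, although the groups overlapped across experiments. The fitted difference was -0.60 ± 0.16 (SE), smallest in J2 at -0.18 and largest in J8 at -0.83.

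Ifi27l2a, a small interferon-induced membrane protein gene, moved strongly with the experiment. It was at 8.23 and 8.716 with inhibitor against 8.85 with vehicle in J2, at 9.61 against 10.44 in J6, and at 9.40 and 9.90 against 10.50 and 10.55 in J8. The J3 vehicle array was at 10.69 and those of J25 at 9.09 and 9.22. Inhibitor arrays were again the lower ones in each of the 3 experiments, with a fitted difference of -0.75 ± 0.20 (SE). Without both J8 vehicle arrays the difference was -0.78 for Ifi27l2a, -0.55 for Irf7 and -0.48 for Rtp4.

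Oasl2, of the oligoadenylate synthetase family of antiviral proteins, separated the groups fully. Inhibitor arrays were at 7.96 and 7.68 (J2), 7.39 (J6), and 7.10 and 7.70 (J8). Vehicle arrays ran from 8.07 to 8.58. The fitted difference was -0.73 ± 0.20 (SE), 1.65-fold lower with the inhibitor, and -0.52 without both J8 vehicle arrays.

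**Figure D2:**
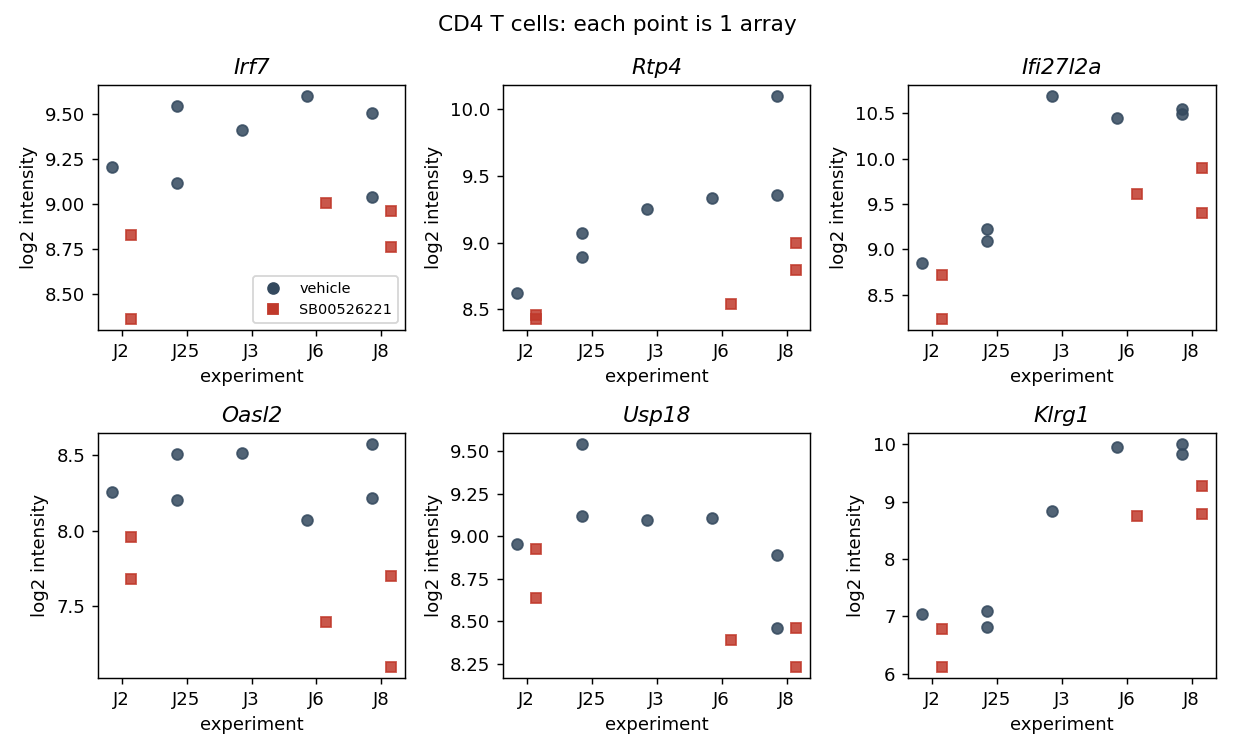
Log2 intensity (vertical axis) of 6 genes in each of the 12 CD4 T cell arrays by experiment (horizontal axis), with vehicle as dark circles and SB00526221 as red squares. In J2, J6 and J8 each red square lies below the vehicle circles of its own experiment for all 6 genes, while the level of Klrg1 and Ifi27l2a differs more between experiments than between treatments.

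The pattern extended over the interferon-stimulated list but not to all of it. Of 45 listed genes 40 had a probe set of their own and 39 passed the filter, and 0 passed the adjusted test. At an unadjusted p under 0.05 there were 12 lower and 0 higher members, where 1.6% of all genes were lower by the same rule. The median difference of the 39 genes was -0.18, against -0.02 over all genes tested, and 30 of them had a negative difference, where 55.3% of all genes did. In 10 of the 39, every inhibitor array was below every vehicle array of its experiment, which held for 1.91% of all genes. The same held above vehicle for 0 members and for 0.856% of all genes. The list was chosen with earlier results of these arrays known, so the count is no independent evidence of its direction.

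Several other members lay lower. Usp18, which removes ISG15 and damps the interferon receptor, differed by -0.45 ± 0.16 (SE), with inhibitor arrays at 8.23 to 8.93 around a median of 8.46 and vehicle arrays at 8.46 to 9.54 around a median of 9.10. Dhx58, an RNA helicase that senses viral RNA, differed by -0.35 ± 0.15 (SE), and Rsad2, the antiviral enzyme viperin, by -0.43 ± 0.17 (SE). Cmpk2, a nucleotide kinase gene next to Rsad2, differed by -0.32 ± 0.11 (SE), and Xaf1, a pro-apoptotic interferon target, by -0.40 ± 0.13 (SE). The transcription factor subunits Irf9 and Stat2 differed by -0.25 ± 0.11 and -0.28 ± 0.15 (SE). Other members showed little difference: Ifit2, an antiviral RNA-binding protein, 0.03 ± 0.21, Ddx58, the RIG-I sensor, 0.02 ± 0.14, and Ly6e 0.01 ± 0.10 (SE). Sp100, a nuclear body protein, was the highest at 0.18 ± 0.12 (SE).

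By array, the mean log2 level of the interferon-stimulated list was 8.98 and 9.08 (J2), 9.09 (J6), and 9.05 and 9.05 (J8) with SB00526221. With vehicle it was 9.18 (J2), 9.04 and 9.28 (J25), 9.43 (J3), 9.34 (J6), and 9.04 and 9.47 (J8). The inhibitor arrays spanned a narrow range, and 2 vehicle arrays, 1 of J25 and the J8 array at 17 h, lay inside it. The median difference of the list was -0.14 within J2, -0.18 within J6 and -0.18 within J8. Without both J8 vehicle arrays the median was still -0.18, and 7 members were lower at an unadjusted p under 0.05. With the macrophage marker level of each array in the model the median was -0.18 and the count 11.

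**Figure D3:**
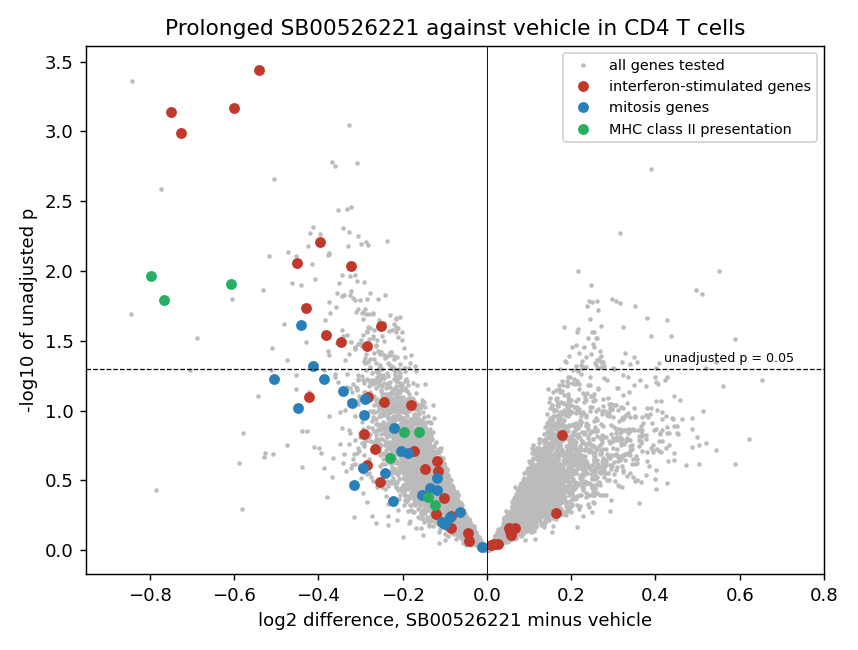
Each point is 1 of the 11210 genes tested, with the log2 difference of SB00526221 minus vehicle on the horizontal axis and the negative log10 of the unadjusted p on the vertical axis. Interferon-stimulated genes (red) are 4 of the 10 genes with the lowest statistics, all 26 mitosis genes (blue) lie left of 0, and no gene passed the adjusted threshold.

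Promoters of interferon-stimulated genes often carry the interferon-stimulated response element, which was searched here as GAAA, any 2 bases and GAAA again, on both strands of the RefSeq promoters (250 bases before to 50 bases after each start, GRCm38.p6). The motif was found in 13 of the 29 tested list genes with a promoter entry (44.8%), against 1079 of 27025 genes in the whole table (3.99%). Among the 12 members that were lower at an unadjusted p under 0.05, 7 had an entry and 2 of them held the motif (28.6%), and among the other members 11 of 22 did (50%). A match is a description of these letters only. The promoters of both genes with a match and of Irf7, the leading gene, which has none in this window, are shown because these genes were among the 12. Capitals mark the motif, which in Oas1a occurs as 2 overlapping copies.
Irf7 promoter, chr7:141266375-141266674, - strand: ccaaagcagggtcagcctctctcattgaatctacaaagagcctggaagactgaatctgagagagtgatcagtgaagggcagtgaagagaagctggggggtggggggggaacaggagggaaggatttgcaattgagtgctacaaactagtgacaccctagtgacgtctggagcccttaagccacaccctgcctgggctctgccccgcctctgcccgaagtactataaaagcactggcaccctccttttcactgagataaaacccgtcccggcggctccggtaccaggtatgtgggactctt
Oas1a promoter, chr5:120907476-120907775, - strand: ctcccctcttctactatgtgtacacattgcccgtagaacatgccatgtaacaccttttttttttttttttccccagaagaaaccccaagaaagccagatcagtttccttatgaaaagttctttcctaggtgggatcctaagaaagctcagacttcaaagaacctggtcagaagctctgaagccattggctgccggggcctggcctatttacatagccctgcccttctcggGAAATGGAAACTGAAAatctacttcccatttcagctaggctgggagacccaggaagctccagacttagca
Rsad2 promoter, chr12:26456403-26456702, - strand: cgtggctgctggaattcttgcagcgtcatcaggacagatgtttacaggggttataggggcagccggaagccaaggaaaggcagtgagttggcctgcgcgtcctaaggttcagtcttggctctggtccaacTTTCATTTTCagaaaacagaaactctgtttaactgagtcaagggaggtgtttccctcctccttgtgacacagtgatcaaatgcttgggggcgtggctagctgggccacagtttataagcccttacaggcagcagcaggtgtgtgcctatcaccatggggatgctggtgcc
Oas1a, another oligoadenylate synthetase, differed by -0.28 ± 0.13 (SE), with a difference of 0.07 in J2, -0.52 in J6 and -0.41 in J8.

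Class I presentation genes, which make and load peptides for display to CD8 T cells, differed in sign between experiments. Of 14 members 11 were tested, with a median difference of -0.15, and 2 were lower at an unadjusted p under 0.05 (background 1.6%). These were the immunoproteasome subunits Psmb9 (-0.30 ± 0.13, SE) and Psmb8 (-0.23 ± 0.11, SE). The median of the list was 0.08 within J2, -0.19 within J6 and -0.10 within J8. The difference of Psmb8 was 0.17 in J2, -0.53 in J6 and -0.38 in J8.

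Targets of the interleukin pathways had medians near that of all genes in the fit, but further below it within J6. The 24 STAT5 targets tested had a median difference of -0.06. Past an unadjusted p of 0.05 were 0 of them in either direction, where 1.6% of all genes were lower and 0.633% higher. The median of the STAT5 targets was -0.07 within J2, -0.34 within J6 and 0.07 within J8, and that of all genes within J6 was -0.05. Cish, a STAT5-induced inhibitor of cytokine receptors, differed by -0.09 ± 0.18 (SE), with a 95% interval from -0.46 to 0.29. Its inhibitor arrays were at 7.64 and 8.17 (J2), 8.76 (J6), and 8.83 and 8.90 (J8). Its vehicle arrays were at 7.94 (J2), 8.44 and 8.32 (J25), 8.82 (J3), 9.34 (J6), and 9.40 and 8.13 (J8), so the groups overlapped. Pim1, a survival kinase, differed by -0.31 ± 0.26 (SE), Socs2, a cytokine signalling inhibitor, by 0.13 ± 0.16 and Bcl2, the anti-apoptotic protein, by 0.21 ± 0.13 (SE). Bcl2 differed by 0.59 in J8, by 0.03 in J6 and by -0.10 in J2, and by 0.09 without both J8 vehicle arrays. The 13 STAT3 targets had a median of -0.02 (-0.01 in J2, -0.36 in J6 and 0.05 in J8). The 8 STAT6 targets had a median of -0.04 (0.01, -0.19 and -0.03). Prdm1, which drives terminal differentiation, and Ccr8, a chemokine receptor, were lower in every inhibitor array than in the vehicle of its experiment, with fitted differences of -0.33 ± 0.17 and -0.32 ± 0.24 (SE).

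No tested component of the pathway itself was past an unadjusted p of 0.05. Of 11 JAK and STAT genes 9 were tested. By that rule 1.6% of all genes were lower and 0.633% higher, so a count of 0 among 9 genes says little. Jak1 differed by 0.07 ± 0.14, Jak2 by 0.23 ± 0.19 and Tyk2 by -0.04 ± 0.19 (SE). Jak3 had no probe set of its own here. The 95% interval of Jak2, the highest of the 9, ran from -0.16 to 0.61. Stat2 was the lowest at -0.28 ± 0.15 (SE). Among 19 listed JAK-STAT inhibitor genes, which include PIAS genes and phosphatases beside SOCS genes, Usp18 was lowest at -0.45. Of the 19, 1 was lower at an unadjusted p under 0.05 and 0 higher. In 2 of the 19, every inhibitor array was below every vehicle array of its experiment, which held for 1.91% of all genes. Socs1 was at -0.12 ± 0.18, Socs3 at -0.02 ± 0.19, and Socs7 at -0.22 ± 0.11 (SE). Socs4 was at 0.34 ± 0.22 (SE), with the J8 vehicle array at 17 h lowest of all at 7.17. Of 18 cytokine receptor genes, Il10ra lay lowest at -0.30 ± 0.17 and Il7r, the interleukin-7 receptor that keeps naive cells alive, was at 0.25 ± 0.14 (SE). Cd4 itself was at -0.03 ± 0.24 (SE).

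Klrg1, an inhibitory receptor of terminally differentiated T cells that is also found on activated regulatory cells, showed the largest difference among the leading genes. It was at 6.12 and 6.79 with inhibitor and 7.03 with vehicle in J2, at 8.75 and 9.96 in J6, and at 8.79 and 9.26 against 9.83 and 10.01 in J8. Vehicle arrays of J25 were at 6.82 and 7.09 and that of J3 at 8.85. Inhibitor arrays were lower in each of the 3 experiments, by -0.84 ± 0.21 (SE) in the fit, which is 1.79-fold, and by -0.89 without both J8 vehicle arrays. Other regulatory T cell genes did not share this size: the 22 genes of the list had a median of -0.14, Foxp3 differed by -0.20 ± 0.21, Il2ra, the interleukin-2 receptor alpha chain, by 0.10 ± 0.14, and Ctla4 by -0.27 ± 0.14 (SE). Foxp3 was lower with inhibitor in J2 and J6 and higher in J8, with differences of -0.78, -0.38 and 0.23. Il10, an anti-inflammatory cytokine, was at 7.31 in the J8 inhibitor array at 14 h and at 4.90 to 5.37 in the other 4. The 6 tested NK cell markers had a median difference of -0.14, made of -0.03 in J2, -0.50 in J6 and -0.18 in J8. Their part in the Klrg1 values was not tested.

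Genes of cell division lay lower with the inhibitor in J6 and J8 and not in J2. All 26 tested mitosis genes (of 31) had a negative difference, with a median of -0.22, and 2 were lower at an unadjusted p under 0.05, where 55.3% of all genes were negative and 1.6% lower by that rule. Without both J8 vehicle arrays the median was -0.19, with 25 negative and 0 at an unadjusted p under 0.05. The median within experiments was 0.04 in J2, -0.55 in J6 and -0.42 in J8. Cdk1, the kinase that starts mitosis, was at 7.03 and 7.09 with inhibitor and 7.11 with vehicle in J2, at 6.86 and 7.69 in J6, and at 7.38 and 7.55 against 8.01 and 8.50 in J8. Plk1, a mitotic kinase, differed by -0.41 ± 0.20 (SE), and Ube2c, an anaphase enzyme, by -0.39 ± 0.20 (SE). The 30 DNA replication genes tested had a median of -0.13, from 0.02 in J2 to -0.37 in J6. The mean level of the mitosis list was 7.05 and 7.57 in the inhibitor and vehicle arrays of J6, and 7.02 and 7.31 against 7.26 and 7.89 in J8. The difference of the effect between J6 and J8 on the one hand and J2 on the other was tested as an interaction over all genes, and 0 of 11210 passed (560 at an unadjusted p under 0.05). For Cdk1 that difference was -0.85 ± 0.35 (SE), with a limma adjusted p of 0.869.

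Class II presentation genes lay lower as well. All 8 tested members had a negative difference, with a median of -0.21, and 3 were lower at an unadjusted p under 0.05 (all genes: 55.3% negative, 1.6% lower by that rule). Without both J8 vehicle arrays the median was -0.27 and 0 members had an unadjusted p under 0.05. H2-Ab1, a class II beta chain, was at 6.41 and 6.23 with inhibitor against 6.584 with vehicle in J2, at 7.88 against 8.80 in J6, and at 7.19 and 8.42 against 9.73 and 8.57 in J8. Cd74, the invariant chain, differed by -0.61 ± 0.23, and H2-Aa, a class II alpha chain, by -0.77 ± 0.30 (SE). Markers of cells that carry class II varied with the experiment. The 10 tested macrophage markers had a median of -0.21 with 9 lower, made of 0.21 in J2, -0.36 in J6 and -0.63 in J8, and it was 0.06 without both J8 vehicle arrays. The 3 tested B cell markers had a median of -0.13, made of 0.05 in J2, -0.49 in J6 and -0.25 in J8. Without both J8 vehicle arrays it was -0.25. The plasma cell genes Jchain and Mzb1 differed by -0.53 ± 0.40 and -0.02 ± 0.10 (SE). The dendritic cell genes Cd209a and Batf3 differed by -0.48 ± 0.20 and -0.08 ± 0.11 (SE). Csf1r, the macrophage growth factor receptor, differed by -0.45 ± 0.23 (SE) and Clec4a3, a myeloid lectin, by -0.77 ± 0.23 (SE). Their part in the class II values was not tested.

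Among genes outside the lists, those with the lowest statistics were Aldh1b1, a mitochondrial aldehyde dehydrogenase (-0.33 ± 0.09, SE), Sall2, a zinc finger factor (-0.37 ± 0.11, SE), Rpa2, a single-stranded DNA binding subunit (-0.31 ± 0.09, SE), B4gat1, a glucuronyltransferase (-0.36 ± 0.10, SE), and Sdhaf4, a complex II assembly factor (-0.51 ± 0.15, SE). The highest statistic belonged to the probe set of Mir455, at 7.88 and 7.58 with inhibitor against 7.44 in J2, 7.13 against 6.93 in J6, and 7.65 and 7.80 against 7.36 and 7.09 in J8. The fitted difference was 0.38 ± 0.10 (SE). Vehicle arrays of J25 at 7.76 and 7.71 lay inside the inhibitor range. The probe set reads RNA of the locus on an expression array and does not measure the mature microRNA. Next were Gm16008 (0.39 ± 0.11, SE), Cspg4 (0.32 ± 0.10, SE), 1700054O19Rik (0.55 ± 0.20, SE), Gstcd (0.22 ± 0.08, SE), Trim67 (0.25 ± 0.09, SE) and Olfr316 (0.50 ± 0.19, SE). Ccr9, the gut-homing chemokine receptor, was at 0.51 ± 0.20 (SE) but lower with inhibitor in J6 by a difference of -0.48. The list ended with Mrgprf (0.30 ± 0.12, SE) and Tmem217 (0.26 ± 0.10, SE).

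Most of the other lists differed in sign between experiments. Exceptions were the BCL2 family (-0.10 in J2, -0.08 in J6 and -0.12 in J8), the circadian clock genes (-0.05, -0.07 and -0.08) and the GIMAP GTPases (0.14, 0.01 and 0.10). Of the lists described above, class II genes were negative in each experiment (-0.12, -0.58 and -0.32). So were regulatory T cell genes (-0.04, -0.41 and -0.01). Heat shock chaperones had the highest median, 0.16 over 14 genes, but -0.12 within J6 and 0.07 without both J8 vehicle arrays. Hsp90aa1 differed by 0.43 ± 0.18 (SE), and by 0.23 without those arrays, with the J8 vehicle array at 17 h lowest at 9.39. The 41 respiratory chain subunits had a median of -0.05, made of 0.32 in J2, -0.31 in J6 and -0.21 in J8. The 16 naive T cell genes had a median of 0.07, the 27 activated and memory genes of 0.06, and the 23 T cell receptor signalling genes of -0.00. Of the activated and memory genes, S100a6, a calcium-binding protein, was at -0.43 ± 0.19 and Id2, a transcriptional inhibitor, at 0.25 ± 0.10 (SE). The median was 0.04 for 24 immediate early genes, -0.07 for 14 NF-kB targets and 0.04 for 24 growth and ribosome biogenesis genes. It was -0.06 for 18 cholesterol synthesis genes, 0.01 for 10 glucocorticoid-induced genes and 0.08 for 8 GIMAP GTPases, beside -0.02 over all genes. The 13 BCL2 family genes had a median of -0.11, and 10 of them were negative, where 55.3% of all genes were. Past an unadjusted p of 0.05 were 0 of the 13, where 1.6% of all genes were lower and 0.633% higher. Among 13 circadian clock genes, Ciart, a clock repressor, differed by 1.11 in J2, by -0.22 in J6 and by -0.01 in J8.

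**Figure D4:**
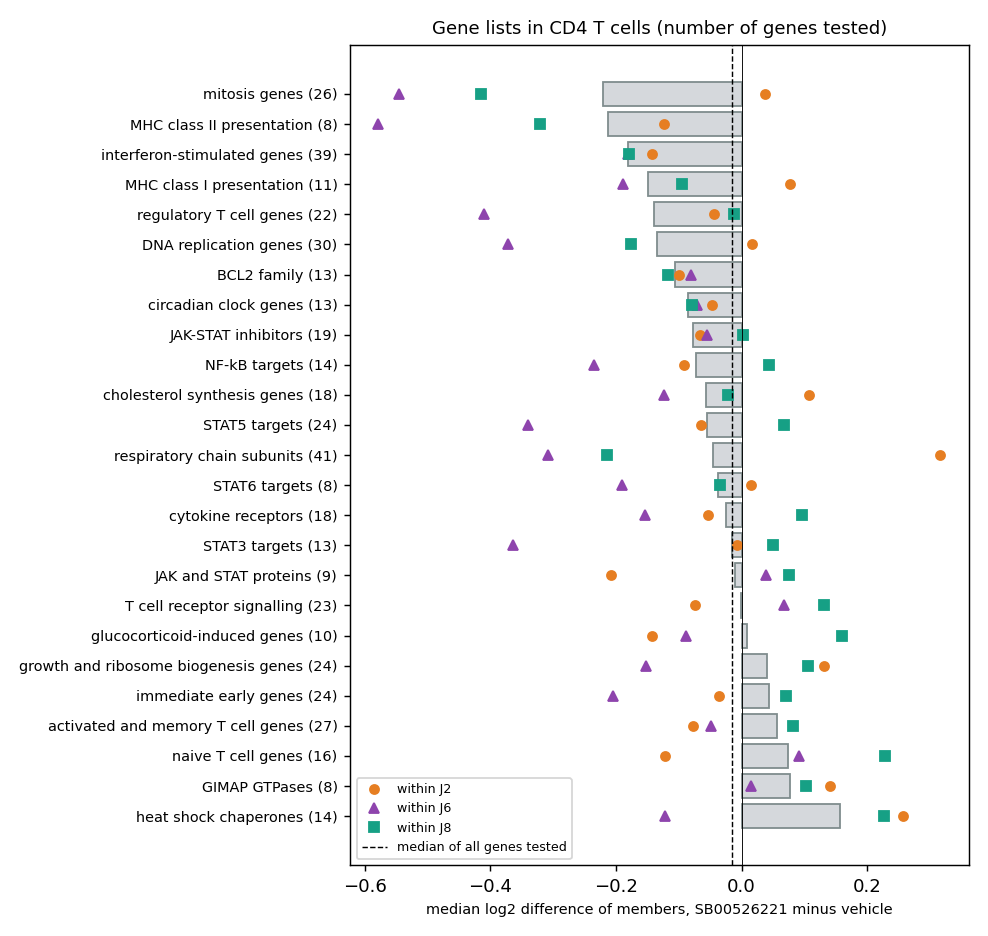
Bars give the median log2 difference of SB00526221 minus vehicle (horizontal axis) over the tested members of each gene list shown (vertical axis, number of genes in brackets), and symbols give the median within J2, J6 and J8. The median is negative within all 3 experiments for interferon-stimulated genes (-0.14, -0.18 and -0.18). The same holds for class II, regulatory T cell, BCL2 family and circadian clock genes. Mitosis genes are at 0.04 in J2 and at -0.55 and -0.42 in J6 and J8.

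SB00526222, a second coded JAK inhibitor, was given in 14 treatments to 6 animals whose T4 cells were profiled, with doses not in the labels. Its arrays came from J2, J25, J3 and J8, at 14 to 18 h after the last treatment. Both compounds met only in J2 and J8. For J6, J25 and J3 the comparison rests on arrays of other groups that link the experiments. Between the compounds 0 of 11210 genes passed the adjusted test (0%), with 417 at an unadjusted p under 0.05 (3.72%). Ifi27l2a was lower with SB00526221 than with SB00526222 by a difference of -0.78, with a 95% interval from -1.19 to -0.37, and Klrg1 by -0.73, from -1.17 to -0.28. For Irf7 the difference was -0.35, from -0.63 to -0.07. For Rtp4 it was -0.18, with an interval from -0.51 to 0.15, and for Oasl2 -0.20, from -0.61 to 0.22. Mir455 differed by 0.44, from 0.24 to 0.64, and Cish by -0.09, from -0.48 to 0.29. Against the vehicle arrays that both compounds share, the interferon-stimulated list had a median of -0.18 with SB00526221 and -0.12 with SB00526222.

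A different schedule of SB00526221, 4 h after the last of 3 treatments, was present in 2 arrays of J2. Compared with it, 9 genes were lower after prolonged treatment and 0 higher at an adjusted p of 0.05 (0.0803% of genes), with 1017 at an unadjusted p under 0.05. Number of treatments and hours since the last one changed together, so they cannot be told apart. Lbp, the lipopolysaccharide-binding protein, was at 9.22 and 9.46 at 4 h against 7.9999 and 7.86 in the prolonged arrays of J2, where the vehicle array was at 7.72. It fell by 1.60 ± 0.15 (SE) on the log2 scale (adjusted p = 4.7e-07, limma). Cxcr4, a chemokine receptor that holds lymphocytes in marrow and tissue, was at 10.82 and 10.47 against 9.10 and 8.75, and 8.95 with vehicle (adjusted p = 0.00087, limma). Lman2l, a secretory pathway lectin, was 2.82-fold higher at 4 h, and Tmie, Nlgn3, a synaptic adhesion gene, and Plin2, a lipid droplet protein, 1.80-fold, 1.54-fold and 1.73-fold. The difference of Rnf32 was -1.14. Cd68, a macrophage marker, was at 7.80 and 8.6902 at 4 h. The macrophage level of these arrays was 6.10 and 7.37, and its part in the counts was not tested. Without the array at 6.10 the count was 46, and without the array at 7.37 it was 3. Leaving out the second J2 prolonged array gave 5 genes and leaving out the J8 prolonged array at 17 h gave 16.

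The probe set of Mir142, the locus of a microRNA that is abundant in blood cells, was at 9.11 and 8.87 at 4 h and at 6.35 and 6.29 in the prolonged J2 arrays, with 6.21 in the vehicle array. The difference was 5.83-fold in the fit (adjusted p = 0.0033, limma). The call was lost without the second 4 h array and without the experiment term. It reads RNA of the locus, and the mature forms were not measured. Their sequences from RefSeq (GRCm38.p6, chr11, + strand) are shown with the seed, bases 2 to 8, in capitals, because this locus had the largest fold of the 9 genes.
mmu-miR-142a-5p: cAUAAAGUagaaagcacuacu
mmu-miR-142a-3p: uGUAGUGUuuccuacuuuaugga

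Values of 3 of the 24 STAT5 targets on both schedules follow. The vehicle arrays used here were all of the prolonged schedule, and no CD4 T cell array of vehicle had the 4 h schedule. In the 4 h differences from vehicle, compound, number of treatments and hours since the last one therefore cannot be told apart. Over all 24 the median at 4 h was -0.07 against vehicle. Ctla4, another of the 24, went the other way at 4 h, at 0.55 ± 0.20 (SE). Against the same vehicle group, Bcl2 was at -0.67 ± 0.19 at 4 h and at 0.21 ± 0.13 after prolonged dosing, Cish at -0.59 ± 0.27 and -0.09 ± 0.18, and Socs2 at -0.57 ± 0.23 and 0.13 ± 0.16 (SE). The direct difference between schedules did not pass for any of them, with adjusted p-values of 0.068 for Bcl2, 0.576 for Cish and 0.356 for Socs2 (limma). Irf7 was at -0.82 ± 0.19 at 4 h and -0.54 ± 0.13 after prolonged dosing, and Rtp4 at -1.14 ± 0.23 and -0.60 ± 0.16 (SE). The interferon-stimulated list had a median of -0.30 at 4 h and of -0.18 after prolonged dosing.

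**Figure D5:**
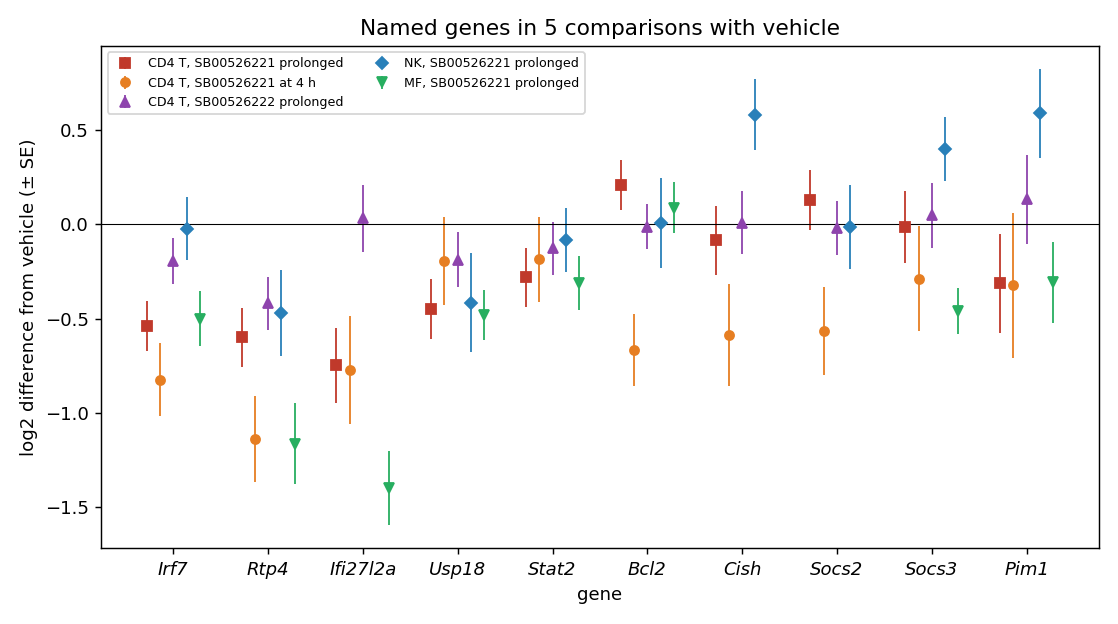
Log2 difference from vehicle ± SE (vertical axis) of 10 genes (horizontal axis) for prolonged SB00526221 in CD4 T cells, NK cells and MF, and for SB00526221 at 4 h and prolonged SB00526222 in CD4 T cells. The vehicle arrays were of the prolonged schedule, also for the values at 4 h. Genes that were not tested in a cell type have no symbol there. Irf7 and Rtp4 are below 0 for both schedules in CD4 T cells, and Bcl2 is at 0.21 after prolonged dosing and at -0.67 at 4 h.

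The same prolonged treatment was profiled in splenic NK cells (7 inhibitor and 3 vehicle arrays) and MF, sorted macrophages (6 and 8 arrays), in part from the same animals. Fitted within MF, Ifi27l2a was lower by a difference of -1.40 ± 0.20 (SE), with an adjusted p of 0.0013, and Rtp4 by -1.16 ± 0.21 (SE), with an adjusted p of 0.030 (limma). Irf7 was at -0.50 ± 0.15 in MF and at -0.02 ± 0.17 in NK cells (SE). The difference of the effect between CD4 T cells and MF passed in limma for 0 of 10219 genes, while 136 had an unadjusted p under 0.05. For CD4 T cells against NK cells it passed for 0 of 10601, with 505 by the unadjusted rule. For Ifi27l2a the effect in CD4 T cells minus that in MF was 0.65 ± 0.29, and for Irf7 the effect in CD4 T cells minus that in NK cells was -0.52 ± 0.21 (SE). Klrg1 was at -0.78 ± 0.26 (SE) in NK cells, beside -0.84 in CD4 T cells. The interferon-stimulated list had medians of -0.23 in MF (36 genes), -0.26 in NK cells (36 genes) and -0.21 in dendritic cells (39 genes).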

How the data were processed

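Intensity values per probe set were made by the authors with RMA and Affymetrix Power Tools, per the submitters' processing notes (versions not given). They were deposited on a linear scale, with array medians of 119.5 to 142.3, and log2 was taken without a pseudocount. Of 24922 probe sets, 21425 carried 1 gene symbol (1399 several, 2098 none), giving 19752 genes. Each gene was read from its brightest probe set, by mean over the T4 arrays. Genes above the array median in at least 3 of 39 T4 arrays were tested. The model in limma 3.58.1 (R 4.3.3) held group and experiment, the title part before the first dot, and p-values were two-sided with Benjamini-Hochberg adjustment. Tests between cell types kept the animal as a random block. The fit was tested on simulated data. P-values measure the spread between these animals. Named genes were, as fewer than 10 passed, the 10 highest and 10 lowest statistics, up to 3 members per list, and 12 fixed pathway genes where tested. Other list members and Clec4a3 were picked with their values known. The members and the 26 lists were chosen with earlier results of these data known. No 2 T4 arrays were identical. The result of 1 list is not reported here.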

Additional observations from a re-analysis of the deposited data

Results flagged for a closer look

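Within the groups of 5 inhibitor and 7 vehicle arrays, 13 of 264 tested levels had an array far from the others by Dixon's test. The number is near 1 in 20, the share that chance flags where all arrays share 1 distribution. Each group pooled experiments that differed in level, so the number cannot tell chance from other causes. The J8 vehicle array at 17 h held 7 of the 13 flagged levels. It was low for Socs4 (7.17, others 8.6697 to 8.93), Il7r (11.12, others 12.07 to 12.41), Themis, a T cell selection gene (8.654, others 10.56 to 11.24), Erap1, a peptide-trimming enzyme (8.34, others 9.15 to 9.46), and Clock (7.28, others 8.41 to 8.76). Its mean level of BCL2 family genes was high at 8.53 (others 8.16 to 8.29), and so was its mean level of granulocyte markers at 6.12 (others 5.63 to 5.76). The J8 vehicle array at 14 h was high for Gimap9 (10.58, others 9.47 to 9.84).

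Among inhibitor arrays, Il10 was high in the J8 array at 14 h (7.31, others 4.90 to 5.37) and Hsp90aa1 in the J8 array at 17 h (11.05, others 10.62 to 10.72). Socs3 was high in the second J2 array (9.63, others 8.38 to 8.653). The J6 array was low for Cspg4 (6.63, others 7.05 to 7.17) and for the mean level of platelet markers (5.95, others 6.19 to 6.28). The causes were not tested.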

How the results depend on the processing

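No gene passed in 27 of 28 other settings for SB00526221 against vehicle. Only J2 and J25 arrays, added after seeing the data, gave 2 genes, both higher. The median of the interferon-stimulated list stayed between -0.24 and -0.15 in all of them, and leaving out single arrays gave -0.24 to -0.16. Its count of members lower at an unadjusted p under 0.05 was 8 to 14 without single arrays, 7 without both J8 vehicle arrays and 6 in J2 and J25 alone. Adding the vehicle at pH 3 gave 16. The count between the schedules was 2 without the experiment term, 49 with array weights, and 3 to 46 without single arrays. Calls between compounds and cell types stayed at 0 in each setting run. Of 96 named genes 22, 19 and 11 had the opposite sign within J2, J6 and J8. Among the 33 whose 95% interval excluded 0, the sign turned within J6 for Cspg4 (-0.16), Ccr9 (-0.48), Id2 (-0.13), Ciart (-0.22) and Hsp90aa1 (-0.19), within J2 for Psmb9 (0.0031) and Psmb8 (0.17), and within J8 for Ciart (-0.010). In J2 and J25 alone it turned for Psmb8 (0.078) and Cdk1 (0.065). The causes were not tested. No paired analysis was possible because every T4 array came from a different animal and replicate numbers follow only the order of deposit; with experiment and hour as a block in 9 arrays, 0 genes passed and 10 list members were lower. Both groups met in 3 experiments only, with 1 vehicle array in J2 and in J6.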

Other observations

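In the 23 T4 arrays of J2 and J25 alone, Ciart was higher with SB00526221 by 1.11 ± 0.14 (SE), with a limma adjusted p of 0.0062, and Atp5md, an ATP synthase subunit, by 0.92 ± 0.14 (SE), with an adjusted p of 0.023. Both were lower with inhibitor in J6, with differences of -0.22 and -0.77, and in J8, with -0.01 and -0.22. The inhibitor effect in that fit rests on 2 inhibitor arrays and 1 vehicle array of the same experiment. The subset was chosen after seeing the data.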
